A study of Homo sapiens with 14 samples.

Results

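The 57 genes described here act in the G2 phase of the cell cycle and in mitosis. They were chosen by name, as a list of G2/M and mitotic genes, and looked up by gene symbol in a table of 27142 genes. Of these, 56 were found by symbol and SGOL1 by its current symbol, SGO1. All 57 passed the filter on low counts that left 13371 genes to test. Messenger RNA was measured by sequencing polyadenylated RNA of wild-type IMR90 cells, human fetal lung fibroblasts cultured in EMEM with fetal bovine serum. Treated cells received 20 uM 2',3'-dideoxycytidine (ddC), a cytidine analog that stops copying of mitochondrial DNA, for 24, 48, 72 or 96 h, with 3 libraries a time. The 2 untreated libraries are given as 0 h in the series design and as 4 days in water vehicle in the sample labels, so their time in culture is uncertain. The libraries are called biological replicates with no word on separate cultures, so p-values measure the spread between these libraries.

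Cells that commit to division switch on a common set of genes in G2. Transcription of many of them is held off by the DREAM complex and then driven by B-MYB and FOXM1, both acting through the MuvB core. The products condense and hold chromosomes, build the spindle, check the attachment of kinetochores, and divide the cell after the anaphase-promoting complex has marked securin and cyclin B for destruction. In fibroblasts the level of these transcripts is widely read as a sign of how many cells are cycling, and p21, the product of CDKN1A, lowers them.

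Total counts ranged from 9398703 to 12147402 per library. Expression is given as CPM, counts per 1e6 of the TMM-scaled library total. All libraries carried fibroblast markers (COL1A1 at least 15700 CPM, VIM at least 4990 CPM), while CDH1, PECAM1, CDH5 and CD3E had 0 counts in all of them. Some markers of other cell types were found in all 14: KRT8 (from 6.52 to 12.6 CPM) and KRT18 (from 39.5 to 61.3) of epithelium, TEK (from 34 to 45.7) of endothelium and CD68 (from 43 to 60.8) of blood cells. Nuclear RNA varied within groups: a score of MALAT1, NEAT1, MEG3 and KCNQ1OT1 (their mean log2 CPM) ran from 4.24 to 6.87, and MALAT1 from 52.1 to 409 CPM. An index summed the counts of 40 low-count genes that overlap 38 abundant genes on the opposite strand, per 1000 counts of the abundant genes. At its widest gap the index parted the libraries into a lower set (0.57 to 0.706) and a higher set (0.824 to 0.973). Whether changes in the expression of these genes moved the index was not tested. The lower set held the untreated and 24 h libraries and 48 h replicates 1 and 2. The higher set held 48 h replicate 3 and all libraries at 72 h and 96 h. Comparing 96 h with untreated cells or with 24 h therefore also compared these sets, and only 96 h against 72 h and 24 h against untreated lay within one.

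The mitotic genes were well expressed in untreated IMR90 cells. Per kilobase of transcript, the median of the 57 genes was 41.2 CPM per kb, against 8.54 over all tested genes. CKS2, a small subunit of cyclin-dependent kinases, had the highest level (149 and 160 CPM per kb in the untreated libraries). It was followed by CCNB1, the mitotic cyclin B1 (151 and 142), and TOP2A, the topoisomerase that untangles sister chromatids (133 and 142). CKS2 and CCNB1 overlapped in the untreated libraries, and the lower value of CCNB1 met the higher one of TOP2A, so the order of these neighbours is not resolved. Next came UBE2C, the ubiquitin-conjugating enzyme of the anaphase-promoting complex (126 and 128 CPM per kb), and ANLN, the cytokinetic scaffold anillin (124 and 127). The lowest levels were those of ESPL1, the separase that cuts cohesin (5.86 and 7.43), SGO1, the protector of centromeric cohesion (6.62 and 7.16), and KIF14, a kinesin of the midbody (9.78 and 10.9). Together the 57 genes took 0.944% and 0.973% of all counts in the untreated libraries and 0.814%, 0.88% and 0.824% in the 3 libraries at 96 h. The shares at 96 h were below both untreated shares. Among the other 9 libraries they ran from 0.886% to 0.973%, overlapping those of untreated cells.

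**Figure D1:**
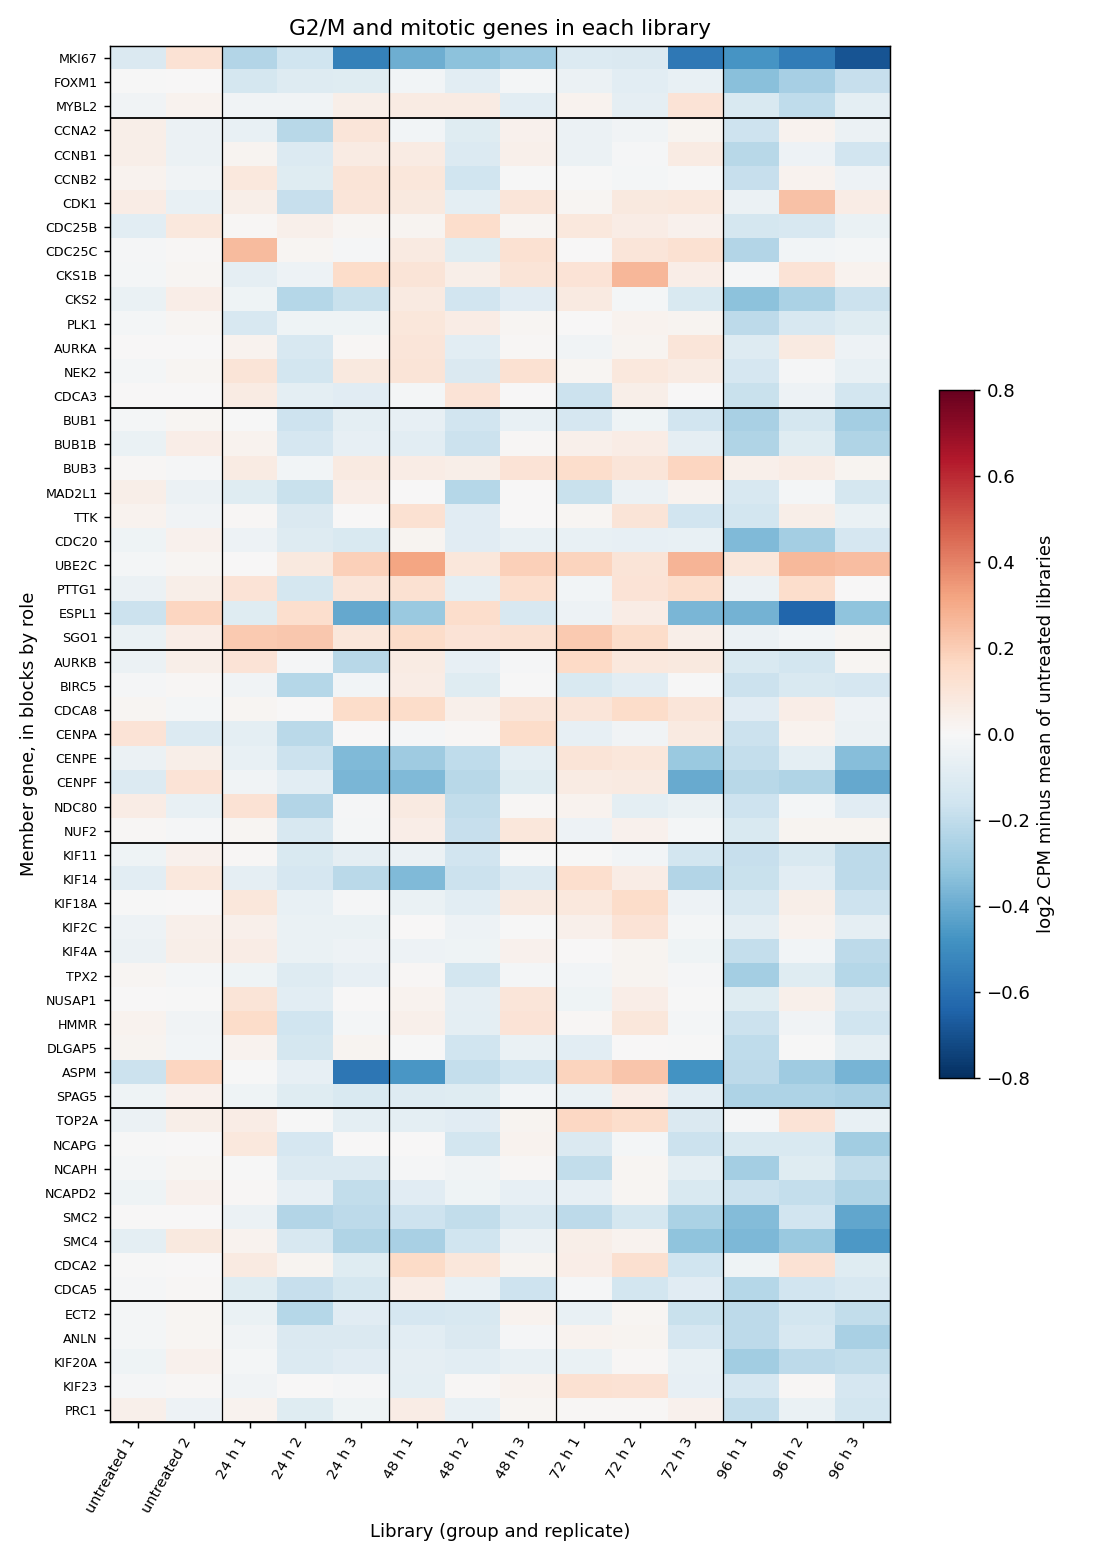
Level of each of the 57 genes (rows, in blocks by role) in each of the 14 libraries (columns), as log2 CPM minus the mean of the untreated libraries. Blue cells lie below the untreated mean: 55, 39 and 50 genes in 96 h replicates 1 to 3, and 50 and 44 in 24 h replicate 2 and 48 h replicate 2. The the MKI67, ESPL1, CENPF and ASPM rows show blue in 24 h replicate 3 and 72 h replicate 3.

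After 96 h of ddC, 7 of the 57 mitotic genes had fallen and 0 had risen. They were the proliferation marker MKI67, the transcription factor FOXM1, the checkpoint kinase BUB1, the anaphase activator CDC20, the spindle protein SPAG5, the condensin subunit SMC2 and the cytokinetic kinesin KIF20A. Their falls were small, from 14.5% to 32.9%. Calls were made at an adjusted p under 0.05 in edgeR's quasi-likelihood test over all 13371 genes, of which 2.11% were called lower and 3.57% higher. The median log2 fold change of the 57 genes was -0.13, with 51 below 0, against a median of -0.004 over all tested genes, of which 50.8% lay below 0. In 29 of the 57 genes every library at 96 h lay below both untreated libraries, as in 19.8% of all tested genes, and in 2 every one lay above, as in 20.6%. Without adjustment 22 genes had p under 0.05 and a value below 0, against 8.97% of tested genes. In bulk RNA, fewer cycling cells and less of these RNAs per cell cannot be told apart.

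MKI67 encodes Ki-67, the coat protein of mitotic chromosomes (NM_002417; hg19 chromosome 10, 129894925 to 129924468). It stood at 385 and 450 CPM in the untreated libraries, 354, 372 and 286 at 24 h, 318, 332 and 340 at 48 h, 386, 384 and 280 at 72 h, and 300, 282 and 258 at 96 h. All libraries at 96 h lay below both untreated ones, though 24 h replicate 3 and 72 h replicate 3 were as low as those at 96 h. Means were 418 ± 46.5 CPM (SD, n = 2) in untreated cells and 280.2 ± 21.2 CPM (SD, n = 3) at 96 h. MKI67 fell by 0.58 on the log2 scale (SE 0.15, adjusted p = 0.0458).

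FOXM1, the forkhead factor that drives G2/M transcription (NM_202002; hg19 chromosome 12, 2966847 to 2986321), had tighter replicates. It stood at 209 and 210 CPM in untreated cells, 190, 195 and 196 at 24 h, 206, 198 and 207 at 48 h, 203, 198 and 201 at 72 h, and 166, 174 and 184 at 96 h. The 96 h libraries were the lowest of all 14, below those of every earlier time. FOXM1 fell by 0.27 on the log2 scale (SE 0.06, adjusted p = 0.00712, n = 3 and 2), the smallest p of the 57 genes. MYBL2, which encodes the partner factor B-MYB, stood at 66.9 and 69.6 CPM in untreated cells and 62.8, 59.2 and 64.5 CPM at 96 h. All 3 lay below both untreated libraries, at a log2 difference of -0.13 ± 0.07 that did not pass the test (adjusted p = 0.321).

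Of the 12 genes for mitotic entry kinases, their cyclins and phosphatases, 0 were called at 96 h by edgeR, DESeq2 or limma-voom. In edgeR 2 had an unadjusted p under 0.05, both with a value below 0, against 8.97% of tested genes. The median of the 12 was -0.08. With the nuclear RNA score in the fit, CCNB1, CKS2 and PLK1 were called lower (adjusted p = 0.0169, 0.0167 and 0.0346), and CDK1 and CCNA2 were not. CKS2 was also called with only the compared groups fitted and without 72 h replicate 3 (adjusted p = 0.0106 and 0.0485). CDK1, the kinase that starts mitosis (NM_001786; hg19 chromosome 10, 62538212 to 62554610), stood at 144 and 133 CPM in untreated cells and 134, 163 and 144 CPM at 96 h. These ranges overlapped, and the log2 difference was 0.08 ± 0.09 (adjusted p = 0.641). Its partner CCNB1 stood at 326 and 306 CPM in untreated cells and 271, 307 and 284 CPM at 96 h, with overlap at a log2 difference of -0.14 ± 0.07 (adjusted p = 0.281). CCNA2, the cyclin A of S phase and G2, also overlapped, at 232 and 217 CPM against 200, 229 and 217 CPM (-0.06 ± 0.08, adjusted p = 0.736). CCNA2 shares 578 bases with EXOSC9 on the opposite strand, and the strand setting of the counting is not given. PLK1, the polo-like kinase of spindle assembly, was tighter. It stood at 182 and 186 CPM in untreated cells and at 159, 168 and 172 CPM at 96 h, all below, but did not pass (-0.15 ± 0.06, adjusted p = 0.151). CKS2 had the smallest p of these 12 genes, at 90.8 and 97.5 CPM against 74.8, 78.9 and 83.7 CPM (-0.25 ± 0.08, adjusted p = 0.0747). The other 7 genes (CCNB2, CDC25B, CDC25C, CKS1B, AURKA, NEK2 and CDCA3) lay between -0.12 for CDCA3 and 0.05 for CKS1B.

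Of the 10 genes of the spindle checkpoint, the anaphase-promoting complex and sister separation, 2 had fallen and the rest pointed both ways (median -0.07). BUB1, the kinase that recruits checkpoint proteins to kinetochores (NM_004336; hg19 chromosome 2, 111395275 to 111435684), stood at 142 and 145 CPM in untreated cells, 143, 128 and 136 at 24 h, 137, 129 and 138 at 48 h, 131, 140 and 129 at 72 h, and 120, 130 and 119 at 96 h. Values at 96 h lay below both untreated libraries but reached into those of the earlier times. BUB1 fell by 0.23 on the log2 scale (SE 0.07, adjusted p = 0.0484, n = 3 and 2). CDC20, the co-activator that the checkpoint restrains (NM_001255; hg19 chromosome 1, 43824626 to 43828873), stood at 172 and 180 CPM in untreated cells, 171, 164 and 162 at 24 h, 179, 165 and 169 at 48 h, 169, 168 and 169 at 72 h, and 138, 146 and 160 at 96 h. Its 96 h libraries were below all others, and it fell by 0.25 (SE 0.06, adjusted p = 0.0241). BUB3, which carries BUB1 to kinetochores, did not follow it: the values were 216 and 214 CPM in untreated cells and 221, 224 and 218 CPM at 96 h (0.04 ± 0.06, adjusted p = 0.760).

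UBE2C had the highest log2 difference of the 57 genes at 96 h. It stood at 106 and 108 CPM in untreated cells, 107, 113 and 122 at 24 h, 133, 114 and 122 at 48 h, 121, 115 and 129 at 72 h, and 114, 128 and 127 at 96 h. Every library from 48 h on lay above both untreated ones, yet the difference at 96 h, 0.20 ± 0.08, did not pass the test (adjusted p = 0.133). ESPL1 lay at the other end, at 38.6 and 48.9 CPM in untreated cells and 33.4, 28.0 and 34.8 CPM at 96 h. Its libraries varied within groups, from 32.7 to 47.7 CPM at 24 h, and the log2 difference of -0.45 ± 0.19 did not pass (adjusted p = 0.210). UBE2C and ESPL1 are described because of these values. The remaining members of this group (BUB1B, MAD2L1, TTK, PTTG1 and SGO1) lay between -0.19 for BUB1B and 0.03 for PTTG1. PTTG1, the securin, UBE2C and the CKS genes have near-identical copies elsewhere in the genome, so their counts may be shared with those.

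Of the 8 genes of the centromere, the kinetochore and the chromosomal passenger complex, 0 were called by any of the 3 tools. All 8 lay below 0 (median -0.09). In edgeR 1 had an unadjusted p under 0.05, against 8.97% of tested genes with such a p and a value below 0. AURKB, the kinase of the passenger complex, stood at 61.2 and 65.5 CPM in untreated cells and 58.1, 57.1 and 63.9 CPM at 96 h, which overlapped (-0.09 ± 0.08, adjusted p = 0.622). BIRC5, its partner survivin, did not overlap, at 187 and 190 CPM against 167, 173 and 172 CPM, and did not pass (-0.14 ± 0.07, adjusted p = 0.248). CENPF, a large protein of the outer kinetochore and farthest below 0 of these genes, stood at 309 and 359 CPM against 285, 282 and 251 CPM (-0.29 ± 0.15, adjusted p = 0.316). The log2 values of CDCA8, CENPA, CENPE, NDC80 and NUF2 ran from -0.20 for CENPE to -0.02 for CDCA8. With the nuclear RNA score in the fit, BIRC5 and CENPF were called lower (adjusted p = 0.0255 and 0.0422). With only the compared groups fitted, CENPE and CENPF were (adjusted p = 0.0427 and 0.00449).

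Among the 11 spindle motors and microtubule-associated proteins, 1 had fallen, and all 11 lay below 0 (median -0.14). SPAG5, or astrin, which steadies kinetochore fibres (NM_006461; hg19 chromosome 17, 26904583 to 26926056), stood at 176 and 185 CPM in untreated cells, 176, 169 and 166 at 24 h, 168, 169 and 178 at 48 h, 174, 187 and 170 at 72 h, and 152, 152 and 151 at 96 h. Its 96 h libraries nearly coincided and lay below all others. SPAG5 fell by 0.26 on the log2 scale (SE 0.06, adjusted p = 0.0120, n = 3 and 2). TPX2, the activator of Aurora A on spindles and the most abundant of these transcripts by CPM, stood at 342 and 336 CPM in untreated cells and 281, 317 and 290 CPM at 96 h. Its libraries were apart too, at -0.20 ± 0.06, just short of the threshold (adjusted p = 0.0607). KIF11, the kinesin that pushes spindle poles apart, stood at 177 and 186 CPM against 160, 167 and 157 CPM (-0.17 ± 0.07, adjusted p = 0.141). The other 8 genes ran from -0.30 for ASPM to -0.04 for KIF2C.

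Chromosome structure and cohesion had 1 called gene of 8, and a median of -0.18. SMC2, the ATPase common to both condensins (NM_001042551; hg19 chromosome 9, 106856541 to 106903700), stood at 119 and 119 CPM in untreated cells, 115, 101 and 103 at 24 h, 106, 104 and 109 at 48 h, 103, 108 and 100 at 72 h, and 93.4, 107 and 89.1 at 96 h. Every treated library, at each time, lay below both untreated ones, and 96 h replicate 2 lay inside the range of the earlier times. SMC2 fell by 0.31 on the log2 scale at 96 h (SE 0.07, adjusted p = 0.0159). SMC4, the ATPase paired with SMC2 in the condensins, stood at 352 and 392 CPM against 290, 302 and 270 CPM and just missed the threshold (-0.37 ± 0.11, adjusted p = 0.0570). NCAPD2, NCAPG and NCAPH, the subunits particular to condensin I, had log2 values of -0.20, -0.17 and -0.18 (adjusted p = 0.0652, 0.197 and 0.158). TOP2A, by CPM the most abundant of all 57 transcripts, overlapped at 760 and 809 CPM against 779, 847 and 754 CPM (0.02 ± 0.07, adjusted p = 0.935). CDCA2 and CDCA5 stood at -0.005 and -0.17.

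Cytokinesis had 1 called gene of 5, with all 5 below 0 (median -0.18). KIF20A, the kinesin of the central spindle (NM_005733; hg19 chromosome 5, 137514417 to 137523404), stood at 269 and 282 CPM in untreated cells, 272, 255 and 259 at 24 h, 262, 260 and 264 at 48 h, 266, 277 and 264 at 72 h, and 227, 238 and 240 at 96 h. The 96 h libraries lay below all others, and KIF20A fell by 0.23 on the log2 scale (SE 0.06, adjusted p = 0.0143, n = 3 and 2). It overlaps CDC23 on the opposite strand by 68 bases. ANLN, the most abundant of these 5 by CPM, stood at 589 and 603 CPM in untreated cells and 516, 545 and 498 CPM at 96 h, apart but just short of the threshold (-0.20 ± 0.06, adjusted p = 0.0574). ECT2, KIF23 and PRC1 lay at -0.18, -0.09 and -0.13.

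**Figure D2:**
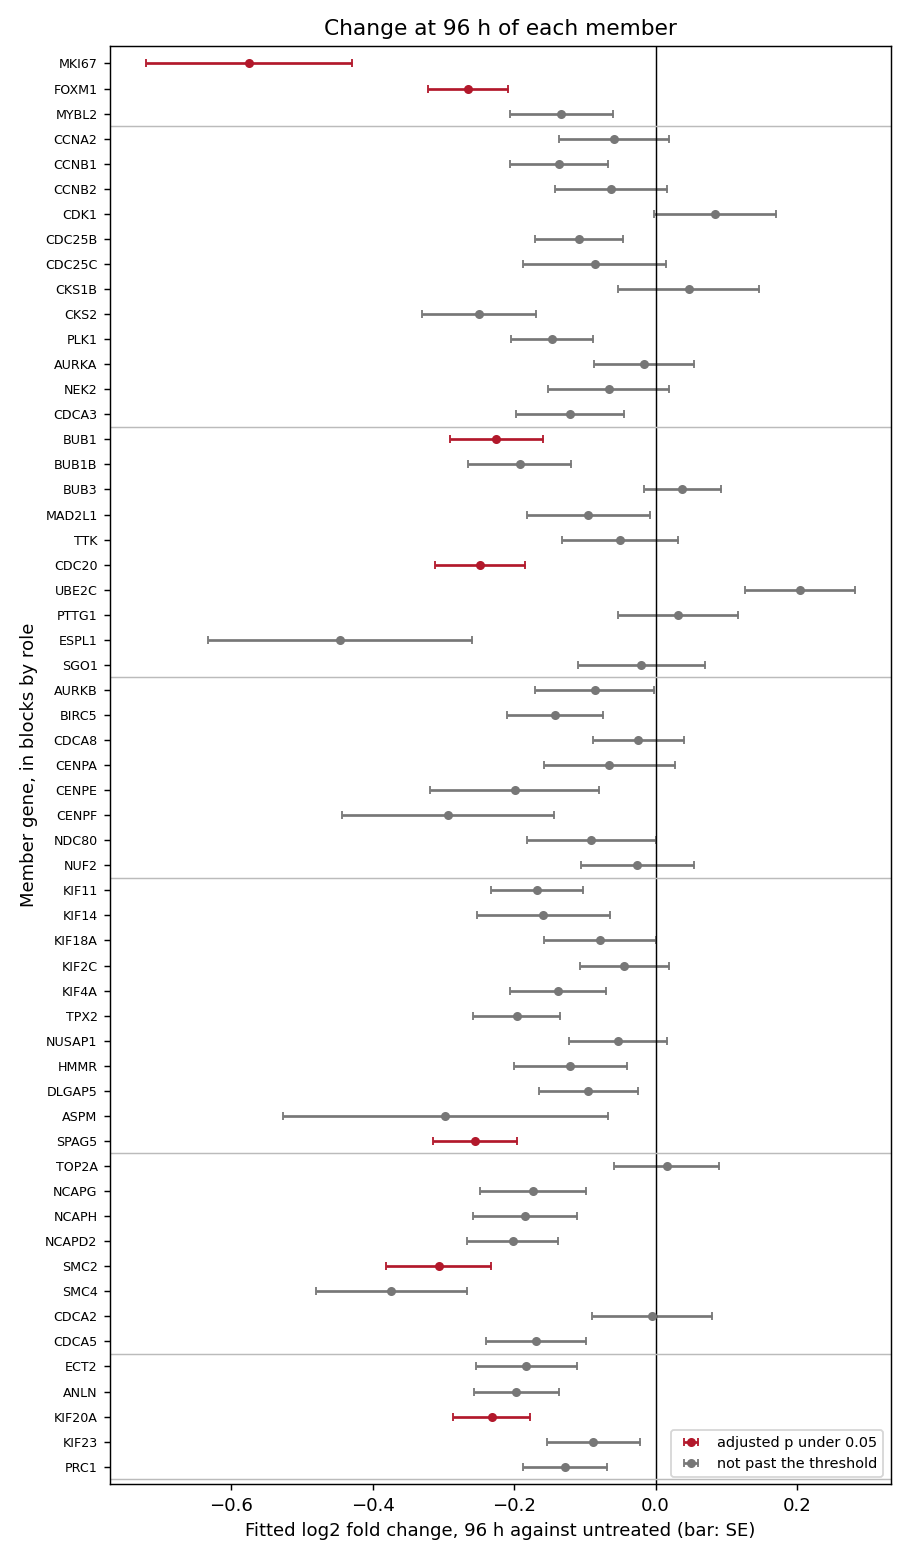
Fitted log2 fold change of each of the 57 genes at 96 h against untreated cells (points; bars are 1 SE on each side), in blocks by role, with the 7 called genes in red. The red points lie between -0.58 for MKI67 and -0.23 for BUB1, and the gray points of CDK1, CKS1B, BUB3, UBE2C, PTTG1 and TOP2A lie above 0.

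These 7 calls rest on the untreated libraries and were made across the 2 library sets. Without untreated replicate 1 or replicate 2, 0 members were called (highest adjusted p between 0.091 for FOXM1 and 0.349 for MKI67 over all left-out libraries). With the library set as a term, which rests on 48 h replicate 3, 0 were called. The 7 log2 values then ran from -0.64 for MKI67 to -0.23 for CDC20 (adjusted p = 0.317 and 0.387). All but that of CDC20 lay farther below 0 than without the term. The SEs were larger than without it, at 0.258 for MKI67 and 0.098 for FOXM1. Whether the falls follow the library sets was not tested. Summed levels of marker lists also differed at 96 h. The 11 fibroblast markers summed to 35500 and 36200 CPM in untreated cells and 41500 to 45000 CPM at 96 h, and 5 epithelial markers, with CDH1 at 0, to 54.7 and 55.5 against 71.4 to 78.4 CPM. Most of the fibroblast sum came from COL1A1 and COL1A2 (means of 16900 and 8879 CPM in untreated cells, 21920 and 11060 at 96 h). Of the 11, 5 were called higher (3.57% of all tested genes), PDGFRA was called lower (-0.30), and VIM stood at -0.04. Sums of the 5 endothelial and 5 blood cell markers were 39.5 to 45.7 against 38.3 to 42.9 CPM, and 51.5 to 53.8 against 48.2 to 50.1 CPM. PECAM1, CDH5 and CD3E were at 0. The part of these lists in the falls of the mitotic genes was not tested.

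**Figure D3:**
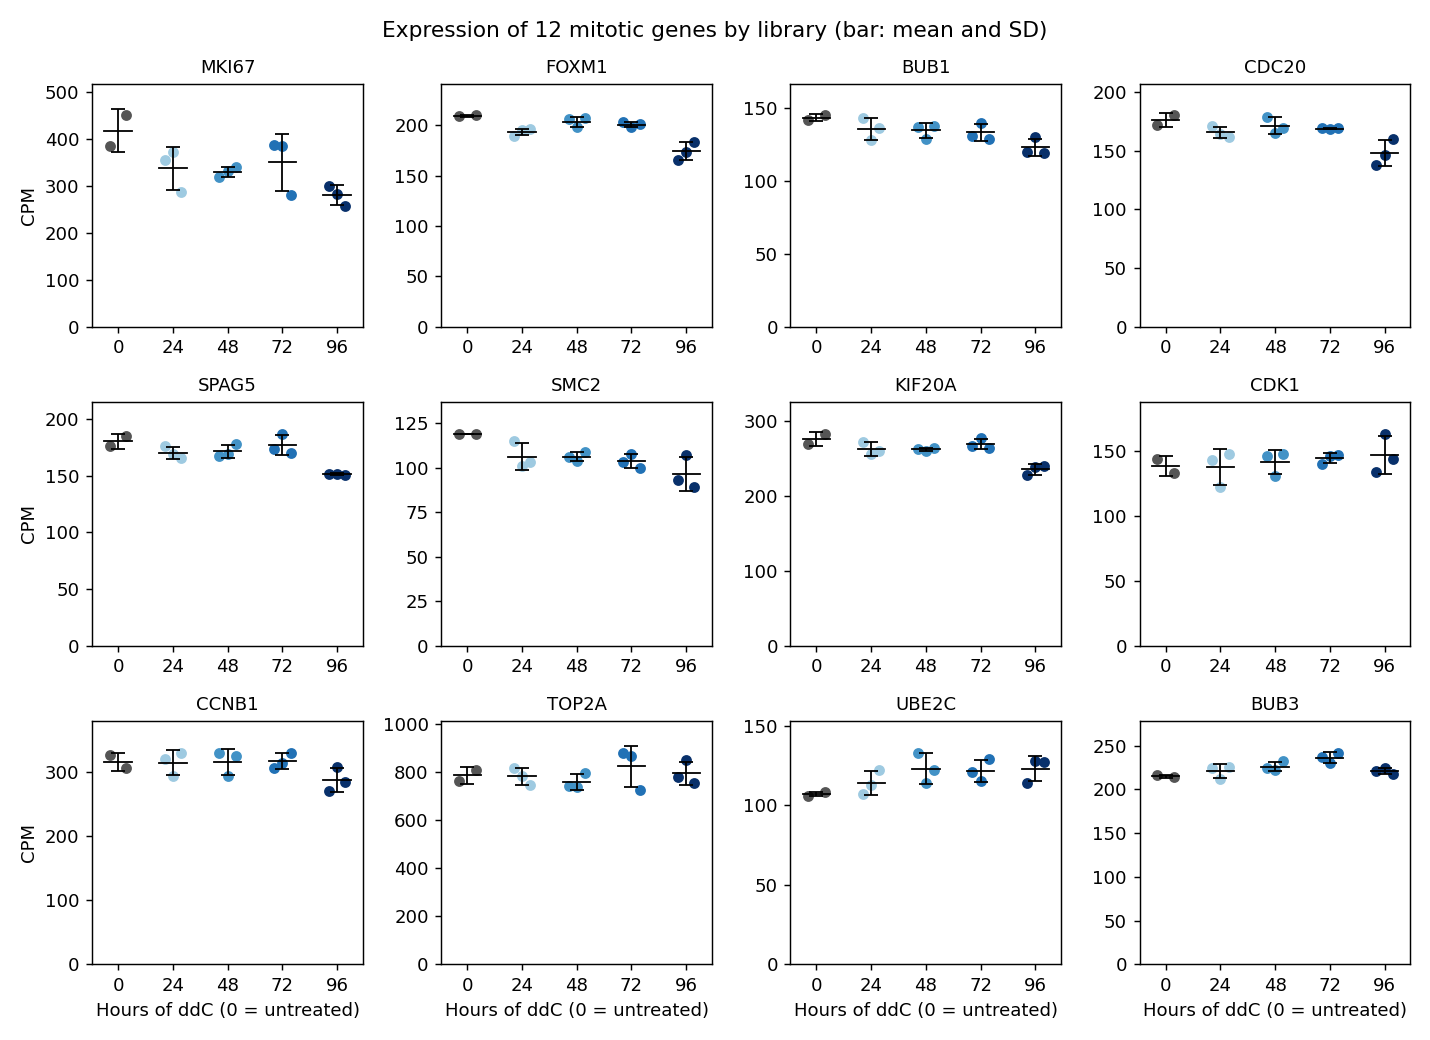
CPM of 12 of the genes in each library (points) by hours of ddC, with 0 for untreated cells. Lines and bars are the mean and SD of 2 untreated or 3 treated libraries, and all axes start at 0. FOXM1, CDC20, SPAG5 and KIF20A are lowest in the 3 libraries at 96 h, while CDK1 and TOP2A overlap throughout.

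At the earlier times no mitotic gene was called. At 24 h the median of the 57 was -0.04, with 45 below 0 (48.1% of tested genes), and the lowest and highest were MKI67 (-0.31) and SGO1 (0.17). The count called was 0 of 57, as for all tested genes (0%), and DESeq2 and limma-voom also called 0. Without adjustment, 1 member had p under 0.05 in edgeR, against 3.42% of tested genes. Every 24 h library lay below both untreated ones in 12 members (8.11% of tested genes) and above them in 1 (7.8%). At 48 h the median was -0.02, with 37 below 0 (49% of tested genes). Again 0 members were called by all 3 tools, against 0.00748% of tested genes, and 4 had an unadjusted p under 0.05, against 6.01%. At 72 h the median was -0.006, with 32 below 0 and 25 above (48.7% of tested genes below 0). The 3 tools called 0 members, against 0.179% of tested genes, and 3 members had an unadjusted p under 0.05, against 7.24%. Libraries lay apart from the untreated ones in 7 members lower (12%) and 6 higher (11.7%) at 48 h. At 72 h they did in 5 lower (12.2%) and 5 higher (12%). MKI67 was farthest below 0 at each of these times (-0.34 at 48 h, -0.25 at 72 h) and UBE2C farthest above at 48 h and 72 h (0.20 and 0.19). Adding the nuclear RNA score to the fit, MKI67 was called lower at 48 h (-0.29, adjusted p = 0.0445) and at 72 h (-0.32, adjusted p = 0.00627), and UBE2C was called higher at 72 h (0.21, adjusted p = 0.0410). The 4 comparisons with untreated cells share the same 2 untreated libraries.

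Within the higher library set, 96 h could be compared with 72 h. The index of opposite-strand genes was not the same at both times, though its ranges overlapped. It was 0.824, 0.914 and 0.865 at 72 h and 0.904, 0.934 and 0.973 at 96 h. From 72 h to 96 h the median of the 57 genes was -0.14, with 55 below 0. Over all tested genes the median was -0.003, and 50.8% lay below 0. Called by edgeR were 0 of 57, against 0.0598% of tested genes called lower and 0.456% higher. Without adjustment 20 members had p under 0.05, all lower, against 5.06% of tested genes. In 19 members every 96 h library lay below every 72 h library, as in 7.24% of tested genes, and in 0 every one lay above, as in 9.26%. The closest to the threshold were SPAG5 (-0.23 ± 0.05, adjusted p = 0.0579), KIF20A (-0.20 ± 0.05, adjusted p = 0.0755) and FOXM1 (-0.20 ± 0.05, adjusted p = 0.0756), whose 72 h and 96 h libraries did not overlap. DESeq2 called these 3 and TPX2 lower, among 127 genes called in all, and limma-voom called 0, among 66. MKI67 stood at -0.32 ± 0.13 (adjusted p = 0.389), with 72 h replicate 3 inside the range of the 96 h libraries. Without that library 5 members were called lower, MKI67 (-0.46, adjusted p = 0.0454), SPAG5, SMC4, ANLN and KIF20A. The share of all tested genes called without it is not given here.

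Against 24 h, the median at 96 h was -0.09, with 49 of 57 below 0, and -0.012 over all tested genes, of which 53.5% lay below 0. edgeR, DESeq2 and limma-voom each called 0 members, against 0.621% of tested genes called lower and 2.58% higher in edgeR. An unadjusted p under 0.05 was found for 14 members, all lower, against 6.36%. The smallest adjusted p were those of KIF20A (-0.16 ± 0.05, adjusted p = 0.0894) and SPAG5 (-0.17 ± 0.05, adjusted p = 0.0941). In both, as in 11 of the 57 genes, every 96 h library lay below every 24 h library, as in 8.2% of tested genes, and in 0 every one lay above, as in 10.8%. The 3 libraries at 96 h differed. Relative to the untreated mean, the median of the 57 genes was -0.18, -0.05 and -0.14 in 96 h replicates 1 to 3, and 55, 39 and 50 genes lay below it. In 24 h replicate 2 it was -0.11, below 96 h replicate 2, with 50 genes below, while the other libraries at 24 h, 48 h and 72 h ran from -0.09 to 0.03.

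Promoters of these genes hold the motifs through which the G2/M program is known to act. The CHR, letters TTTGAA, is the site of the MuvB core, and CCAAT is the site of NF-Y. Windows from 250 bases before to 50 bases after the start of each gene (RefSeq, GRCh38.p14) were found for 49 of the 57, and both strands were searched. The CHR was present in 34 of 49 (69.4%), against 9.7% of tested genes and 15.4% of all 27305 windows of that length. CCAAT was present in 35 of 49 (71.4%), against 36.7% and 35.7%, and both together in 53.1%, against 4.1% and 6.08%. In 27 of the 34 with a CHR one lay within 50 bases of the start, against 28% of tested genes with one. E2F motifs (TTTCCCGC, TTTGGCGC, TTTCGCGC or TTTGCCGC), which mark genes of S phase, were in 4 of 49 (8.16%), against 5.43% of tested genes and 3.33% of all windows. Of 44 windows of DNA replication and G1/S genes, 52.3% held an E2F motif and 4.55% a CHR. The windows of the 6 called genes that have one are shown, since they hold both motifs (MKI67 and CDC20), a CHR alone (SPAG5 and SMC2) or CCAAT alone (BUB1 and KIF20A), and beside them that of PLK1, which was not called. They run 5′ to 3′ with both motifs in capitals on either strand.
MKI67: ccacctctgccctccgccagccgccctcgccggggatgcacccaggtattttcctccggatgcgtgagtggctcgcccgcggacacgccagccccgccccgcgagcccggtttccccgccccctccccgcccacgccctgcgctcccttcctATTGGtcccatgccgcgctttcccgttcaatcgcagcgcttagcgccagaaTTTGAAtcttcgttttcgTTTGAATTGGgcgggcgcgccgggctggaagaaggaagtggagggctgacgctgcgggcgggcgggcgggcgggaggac
CDC20: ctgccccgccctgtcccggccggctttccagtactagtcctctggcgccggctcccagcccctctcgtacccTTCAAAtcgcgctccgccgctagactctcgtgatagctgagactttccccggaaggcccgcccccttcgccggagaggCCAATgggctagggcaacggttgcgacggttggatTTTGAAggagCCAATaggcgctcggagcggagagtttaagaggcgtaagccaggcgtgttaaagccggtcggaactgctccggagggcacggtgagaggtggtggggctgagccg
SPAG5: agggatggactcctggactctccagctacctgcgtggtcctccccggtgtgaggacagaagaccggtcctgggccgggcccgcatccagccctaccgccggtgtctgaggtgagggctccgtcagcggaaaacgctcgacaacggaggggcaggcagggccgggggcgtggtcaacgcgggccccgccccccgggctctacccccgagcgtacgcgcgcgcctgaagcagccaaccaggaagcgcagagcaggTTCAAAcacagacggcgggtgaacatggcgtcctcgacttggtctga
SMC2: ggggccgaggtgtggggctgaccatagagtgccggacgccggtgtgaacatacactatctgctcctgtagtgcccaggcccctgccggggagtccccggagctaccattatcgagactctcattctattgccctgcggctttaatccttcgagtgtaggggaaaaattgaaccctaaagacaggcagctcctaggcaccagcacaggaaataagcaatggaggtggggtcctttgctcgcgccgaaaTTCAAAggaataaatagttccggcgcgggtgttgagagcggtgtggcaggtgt
PLK1: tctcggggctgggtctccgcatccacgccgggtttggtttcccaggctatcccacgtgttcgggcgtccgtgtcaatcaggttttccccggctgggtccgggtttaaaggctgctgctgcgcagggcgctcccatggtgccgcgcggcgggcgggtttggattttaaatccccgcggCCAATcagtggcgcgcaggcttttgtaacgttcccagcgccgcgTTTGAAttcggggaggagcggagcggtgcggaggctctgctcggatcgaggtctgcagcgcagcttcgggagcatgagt
BUB1: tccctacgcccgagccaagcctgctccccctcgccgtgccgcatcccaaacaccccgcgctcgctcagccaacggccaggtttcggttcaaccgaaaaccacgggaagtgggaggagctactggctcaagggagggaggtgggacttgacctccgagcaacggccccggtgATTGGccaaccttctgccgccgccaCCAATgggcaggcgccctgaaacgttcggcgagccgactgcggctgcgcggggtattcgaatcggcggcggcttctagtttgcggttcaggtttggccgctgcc
KIF20A: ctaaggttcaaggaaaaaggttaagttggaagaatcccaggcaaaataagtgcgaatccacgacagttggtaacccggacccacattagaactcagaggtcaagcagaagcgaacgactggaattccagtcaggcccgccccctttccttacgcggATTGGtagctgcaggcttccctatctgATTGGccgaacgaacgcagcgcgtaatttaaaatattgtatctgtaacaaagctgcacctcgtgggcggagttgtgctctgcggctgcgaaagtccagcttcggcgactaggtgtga

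These windows lie at chr10:128126374-128126673 on the minus strand (MKI67), chr1:43358731-43359030 on the plus strand (CDC20), chr17:28598976-28599275 on the minus strand (SPAG5), chr9:104094059-104094358 on the plus strand (SMC2), chr16:23678639-23678938 on the plus strand (PLK1), chr2:110678014-110678313 on the minus strand (BUB1) and chr5:138178862-138179161 on the plus strand (KIF20A). In MKI67 a CHR began 47 and another 29 bases before the start, the nearer sharing 1 base with a reverse CCAAT. In CDC20 they began 178 bases (reverse) and 65 bases before the start. SPAG5 and SMC2 had 1 reverse CHR each, just past the start in SPAG5 and 3 bases before it in SMC2, and no CCAAT. PLK1 had 1 CHR, 29 bases before the start, and a CCAAT 73 bases before it. BUB1 and KIF20A had no CHR in these letters and 2 CCAAT each. The 34 genes with a CHR had a median of -0.14 at 96 h with 4 called, and the 15 without one had a median of -0.11 with 2 called. FOXM1 was among the 8 genes with no window. A match describes letters in the window and is no measure of binding.

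Mitotic genes outside the list gave a similar count. Of 61 further mitotic genes, 55 lay below 0 at 96 h (median -0.13). These 61, like all gene lists here, were chosen with earlier results of these data known. Among the 61, 6 had fallen (2.11% of all tested genes) and 0 had risen (3.57%). They included LMNB1, the lamin B1 (195 ± 1.96 to 159 ± 7.91 CPM; log2 change -0.30 ± 0.06, adjusted p = 0.00412), and NCAPD3, a subunit of condensin II (-0.42 ± 0.09, adjusted p = 0.00491). ZWINT and SKA3, both of the kinetochore, fell by 0.31 and 0.28 (adjusted p = 0.00747 and 0.0174). Against 24 h, 2 of the 61, LMNB1 and NCAPD3, had fallen (0.621% of all tested genes). In edgeR, 0 of 12 tested genes of the DREAM and MuvB complexes were called at 96 h (median -0.10). For subunits and partners of the anaphase-promoting complex it was 0 of 18 (median -0.06). For mitotic exit phosphatases and related kinases it was 0 of 14 (median -0.07). In these 3 lists, 1, 3 and 3 genes had an unadjusted p under 0.05 and a value below 0, against 8.97% of tested genes. With either direction counted, the third list had 4. In G1 and quiescence, 1 of 16 tested genes had fallen, against 2.11% of all tested genes. It was the repressor E2F8 (-0.61 ± 0.14, adjusted p = 0.00934).

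Several genes that brake CDK1 or arrest cells in G2 were higher. Of 9 tested, 4 had risen at 96 h (3.57% of all tested genes) and 0 had fallen (2.11%). Their median was 0.33, with 3 below 0. CDKN1A, the p21 inhibitor of cyclin-dependent kinases, stood at 440 ± 14.5 CPM (SD, n = 2) in untreated cells and 879 ± 23.2 CPM (SD, n = 3) at 96 h. It rose by 1.00 ± 0.08 on the log2 scale (adjusted p = 3.05e-07). BTG2, an antiproliferative p53 target, rose by 0.94 ± 0.13 (adjusted p = 0.000148), and the G2 arrest genes GADD45A and GADD45B by 0.53 ± 0.08 and 0.48 ± 0.08 (adjusted p = 0.000376 and 0.000753). WEE1 and PKMYT1, which phosphorylate CDK1 directly, stood at -0.05 and -0.0007 and did not pass. CHEK1 was the lowest of the 9, at -0.13, and was not called. CDKN1A was also called higher at 48 h and 72 h (0.55 and 0.61), and it rose from 72 h to 96 h (0.38 ± 0.07, adjusted p = 0.0121). Its relation to the mitotic genes was not tested.

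DNA replication and G1/S genes had a lower median. At 96 h the median of the 50 was -0.38, with 48 below 0. Of these 50, 25 had fallen (2.11% of all tested genes) and 0 had risen (3.57%). Among them FAM111B, a serine protease, fell from 34.9 ± 0.391 to 15.9 ± 0.978 CPM (-1.14 ± 0.10, adjusted p = 5.4e-07). MCM7, MCM4 and MCM6, subunits of the replicative helicase, fell by 0.53, 0.50 and 0.55 (adjusted p = 1.32e-05, 1.35e-05 and 2.94e-05). From 24 h to 96 h, 12 of 50 replication genes and 0 of 57 mitotic genes had fallen, against 0.621% of all tested genes. From 72 h to 96 h, 5 and 0 had fallen, against 0.0598%. The difference between the lists, which were chosen with earlier results of these data known, was not tested.

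**Figure D4:**
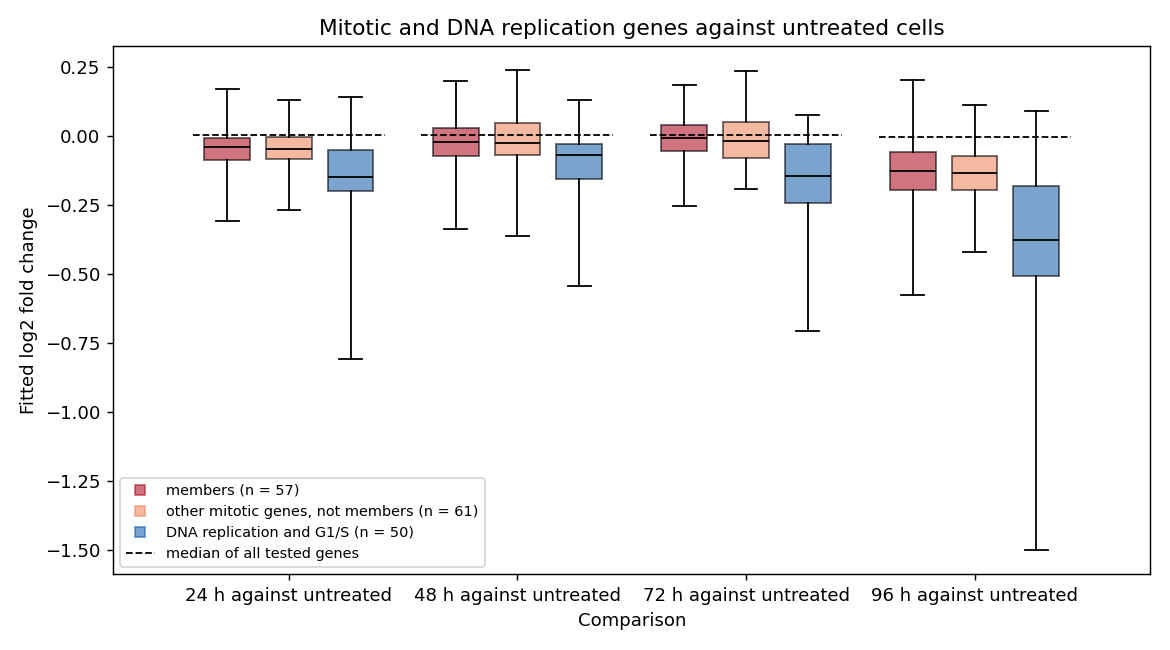
Fitted log2 fold change against untreated cells at each time for the 57 mitotic genes (red), 61 further mitotic genes (orange) and 50 DNA replication and G1/S genes (blue). Boxes span the quartiles with the median as a line, whiskers reach the lowest and highest gene, and dashed lines mark the median of all tested genes. At 96 h the medians are -0.13, -0.13 and -0.38.

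Log2 differences of the mitotic genes varied with transcript length. Across the 57 genes, Pearson r between log2 transcript length and the log2 fold change was -0.51, -0.70, -0.51 and -0.61 at 24, 48, 72 and 96 h, against -0.12, -0.20, -0.10 and -0.12 across all tested genes. Genes are not independent replicates, and these comparisons share the untreated libraries, so no p is given. The 11 mitotic genes over 5000 bases had a median of -0.29 at 96 h with 2 called, MKI67 and SMC2, and the 46 others a median of -0.10 with 5 called. The medians of all tested genes split in the same way were -0.08 and 0.02, with 4.27% and 1.49% called lower. Single libraries varied in this respect. In 72 h replicate 3, with a nuclear score of 4.65, the median of the 11 long genes was -0.30 and that of the 46 shorter ones -0.005, relative to untreated cells. In 72 h replicates 1 and 2, with scores of 6.87 and 6.79, the same medians were 0.05 and 0.06 for long genes, and the highest for the others was 0.03. Other libraries did not follow the order of their scores. The median of the long genes was -0.12 in 24 h replicate 2, at a score of 6.76. The median of the long genes minus that of the shorter ones was -0.138 in 96 h replicate 2 (score 4.76) and -0.233 in 96 h replicate 3 (score 5.39).

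**Figure D5:**
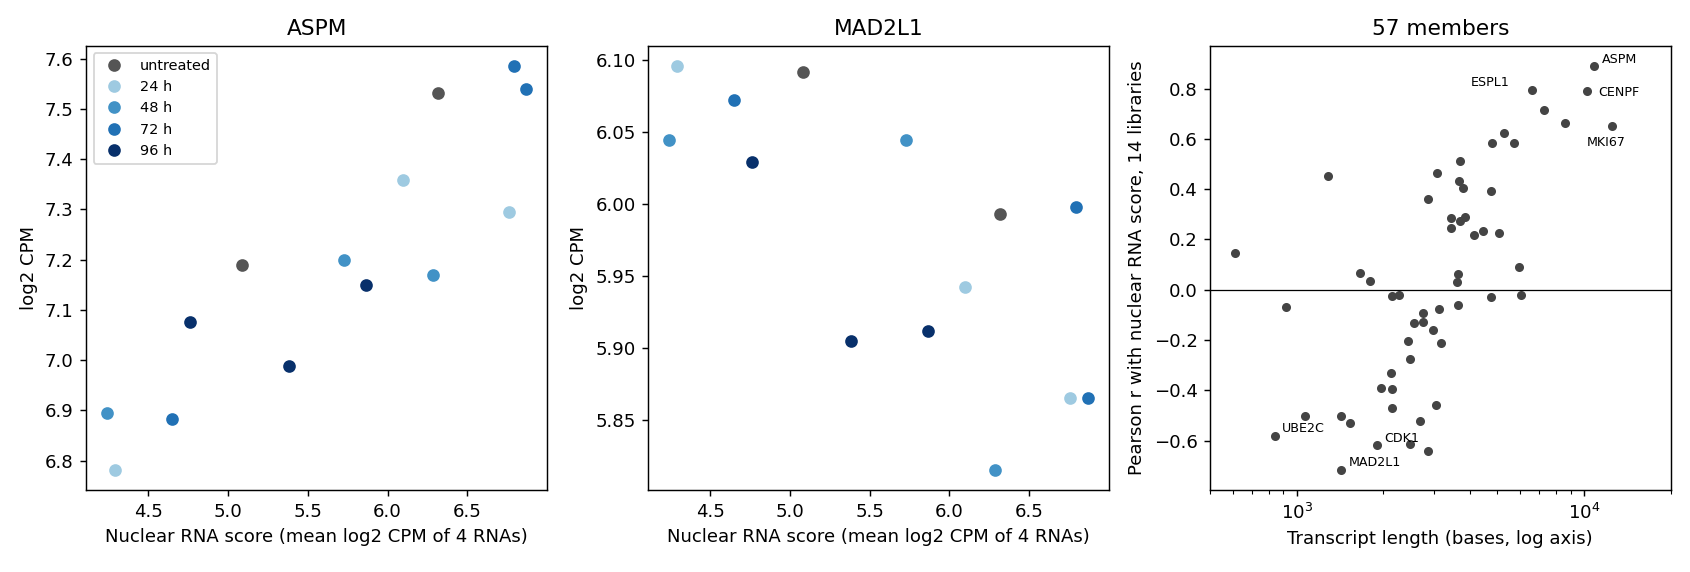
Log2 CPM of ASPM and MAD2L1 against the nuclear RNA score in the 14 libraries (points, colored by time), and for all 57 genes Pearson r with that score against transcript length (log axis). ASPM rises with the score in libraries of all groups (r = 0.889), MAD2L1 falls with it (r = -0.717), and the longest genes sit at the top right. NCAPH, SMC2 and KIF11, also over 5000 bases, lie lower (r = -0.019, 0.090 and 0.225).

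Over the 14 libraries, 3 of the 57 relations with the nuclear score passed Benjamini-Hochberg adjustment of a permutation test of Pearson's r. ASPM, a spindle pole protein, stood from 110 to 192 CPM and had r = 0.889 and Spearman's rho = 0.895 (adjusted permutation p = 0.00342 and 0.00285). The relation stayed without the 2 farthest libraries (r = 0.830) and within each library set (0.849 and 0.940). ESPL1 had r = 0.795 and rho = 0.771 (adjusted permutation p = 0.0242 and 0.0353), with 0.808 without 2 libraries and 0.940 and 0.855 within sets. CENPF had r = 0.790 and rho = 0.807 (adjusted permutation p = 0.0249 and 0.0259), with 0.729 without 2 libraries and 0.748 and 0.872 within sets. For MKI67 r was 0.652 and rho 0.688 (adjusted permutation p = 0.0958 and 0.0697). MAD2L1, a short checkpoint transcript, ran the other way, with r = -0.717 and rho = -0.732 (adjusted permutation p = 0.0605 and 0.0418). KIF14 had r = 0.713 and rho = 0.745 (adjusted permutation p = 0.0586 and 0.0418). By rho, MAD2L1 and KIF14 thus passed as well. Centred on group means, r ran both ways, at 0.921 for ASPM, 0.030 for SMC2, -0.237 for FOXM1, -0.742 for CCNA2 and -0.825 for CCNB1, given as descriptions. An r over 0.7 was found in 7.02% of these genes and in 10.7% of all tested genes. The nuclear score was 5.085 and 6.32 in the untreated libraries and 5.87, 4.76 and 5.39 at 96 h, overlapping. With the score in the fit, 22 of the 57 genes were called at 96 h, 21 lower and UBE2C higher, and MKI67 stood at -0.52 ± 0.06 (adjusted p = 2.87e-06). The share of all tested genes called in that fit is not given here, so the 22 cannot be set against it.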

How the data were processed

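The 14 libraries came from a stranded kit for polyadenylated RNA, per the labels' protocols. The submitters' processing notes name STAR 2.5.3a, HOMER and hg19; the strand setting is not given in the sources used here. The authors deposited raw counts for each gene, with 0 columns outside the 14 samples and 0 genes of mitochondrial DNA. The 57 genes and all gene lists were chosen with earlier results of these data known.

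Counts were tested with edgeR 4.0.16 in R 4.3.3 (TMM factors 0.971 to 1.02, filterByExpr with minimum count 10 and total 15, robust quasi-likelihood fit of all 14 libraries, 1 mean per group). p was adjusted by Benjamini-Hochberg over 13371 genes in each of 6 comparisons and called under 0.05, two-sided. SE is the log2 change divided by the square root of F. log2 CPM for the score used a prior count of 3. Named were called members, in each role the member with the smallest p at 96 h and the most abundant one, 12 fixed genes, and up to 4 called genes of each other list; others were named after their values were seen. Alternatives used median-ratio factors, DESeq2 1.42.0, limma-voom 3.58.1, no filter, a replicate block, the compared groups alone, the nuclear score as a covariate, each library left out, and, added after seeing the data, the library set as a term. Permutation tests drew 100000 resamples, shuffling all 14 libraries regardless of group. Fits were tested on simulated data. Precision is limited by 2 untreated libraries.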

Additional observations from a re-analysis of the deposited data

How the results depend on the processing

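The count of members called at 96 h against untreated cells was 7. It was 11 in DESeq2, which called 776 genes in all, against 759 in edgeR and 683 in limma-voom. It was 19 (18 lower) when only untreated and 96 h libraries were fitted. It was 22 when the nuclear score was fitted, and 0 when the library set was. It was 7 with median-ratio factors, the same genes, and 7 with limma-voom, which lost BUB1 (adjusted p = 0.0516) and gained SMC4 (adjusted p = 0.0458). It was 5 with no filter, which lost MKI67 (adjusted p = 0.076) and BUB1 (adjusted p = 0.0541), and 6 with the replicate block, which lost BUB1 (adjusted p = 0.0778). Fitting the nuclear score, 1 member was called at 48 h, 2 at 72 h, 9 from 24 h to 96 h and 8 from 72 h to 96 h. DESeq2 called 4 members in the last comparison, among 127 genes in all, against 69 genes in edgeR. For the other alternatives, calls over all tested genes are not given here, so member counts cannot be set against a share. The median log2 fold change was -0.060 at 72 h and -0.194 at 96 h with the library set, against -0.006 and -0.128; other alternatives moved medians by less. The cause was not tested. Leaving out 1 library gave 0 to 0 members called at 24, 48 and 72 h, 0 (without either untreated library) to 12 (without 72 h replicate 3) at 96 h, 0 to 1 against 24 h and 0 to 5 against 72 h. Where 1 untreated library was left, it was assumed to vary like the other groups. Medians ran from -0.075 to -0.015 at 24 h, -0.037 to -0.003 at 48 h, -0.018 to 0.008 at 72 h, -0.152 to -0.097 at 96 h, -0.119 to -0.043 against 24 h and -0.148 to -0.103 against 72 h. Of these 14 fits each, calls were lost in 10 for MKI67, 8 for BUB1, 4 for CDC20 and SMC2, 3 for FOXM1 and KIF20A and 2 for SPAG5, and 0 changed direction. Whether replicate numbers pair the libraries could not be settled. Deviations from group means of the 26 same-numbered pairs correlated from -0.361 to 0.611 (median -0.0293), and those of 52 other pairs had a median of 0.042. Centring groups of 2 or 3 libraries forces deviations to cancel within a group, so these values cannot exclude pairing.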
